A study of Mus musculus with 23 samples.

Results

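The genes described here are 9 of the 54347 genes in the deposited matrix, the receptors Egfr, Erbb2 and Erbb4 and the ligands Areg, Ereg, Hbegf, Tgfa, Btc and Nrg1. They were chosen by name as members of 1 signalling family, with no value in the rule, though earlier results of these data were known. ErbB receptors are tyrosine kinases of the cell surface. A ligand of the EGF family is made as a membrane protein, is cut free by a protease and binds a receptor, which then pairs with another receptor and activates the Ras-ERK and PI3 kinase routes inside the cell. ERBB2 has no known ligand of its own and works as the partner of the other receptors, while ERBB3 has little kinase activity and depends on such a partner. In skin, gut and developing teeth this family is known for its part in the growth and survival of epithelium.

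Cells came from the labial cervical loop, the fold of epithelium from which the ever-growing lower incisor of the mouse is renewed, at postnatal day 2. All mice carried the Sox2-GFP reporter, in which green fluorescent protein follows the endogenous Sox2 promoter. Cells were freed with enzymes and separated by FACS. The Sox2-positive fraction is named dental epithelial stem cells (DESC) in the labels, and the Sox2-negative fraction is the cells of the same region without the reporter signal. The labels name no treatment and no control line. Batch A held 6 Sox2-negative and 6 Sox2-positive libraries and batch B held 4 and 7, and the 2 batches were separate days with different mice. Whether libraries of 1 batch came from different mice is not given in the sources used here, so the p-values measure the spread between libraries, which may be technical.

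Column totals ran from 2305778 to 9541443 counts with a median of 4831091, and a floor of 3 counts corresponded to 0.357 to 1.30 CPM (counts divided by TMM-scaled library totals). Sox2 itself averaged 0.0436 ± 0.107 CPM (SD, n = 6) in batch A Sox2-negative libraries and 7.27 ± 4.41 CPM (SD, n = 6) in Sox2-positive ones, and 0.297 ± 0.595 (SD, n = 4) and 16.4 ± 2.91 CPM (SD, n = 7) in batch B. The populations differed in cell-type markers as well. The summed level of 10 epithelial markers had medians of 218.1 and 4049 CPM in Sox2-negative and Sox2-positive libraries of batch A and of 410.8 and 6141 CPM in batch B. The sum of 10 mesenchymal markers had medians of 12940 and 1585 CPM in batch A and of 12960 and 812.8 CPM in batch B, with Twist1 at 0 in both Sox2-positive groups. Sox2-negative libraries also held endothelial, leukocyte, mast cell and red cell RNA. Their red cell sum ran from 53600 to 62030 CPM in batch B against 982.6 to 1175 CPM in batch A. The sum of 6 ameloblast markers had medians of 878.8 and 325.5 CPM in Sox2-negative and Sox2-positive libraries of batch A. In batch B these were 663.4 and 12.2 CPM. Over both batches 4 of 5 tested ameloblast markers were called lower in Sox2-positive libraries and 1, Odam, was called higher. Batch A Sox2-positive libraries held glial RNA. The sum of 7 glial markers had medians of 97.2 and 1372 CPM in Sox2-negative and Sox2-positive libraries of batch A, where 6 were called higher and S100b lower in Sox2-positive ones. In batch B the medians were 90.6 and 79.5 CPM. Batch B libraries numbered 1 and 2 stood closer to each other than to the rest of their groups, with a Spearman correlation between them of 0.98 in Sox2-positive cells against a median of 0.962 across.

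In the mm10 build, with GENCODE M21 gene models, Egfr lies at chr11:16752203-16918158 and Erbb2 at chr11:98412470-98437716, both on the plus strand. These were the only members whose difference between populations passed the test in both batches, so sequence before each start is printed here. The Egfr run stops 14 bases short of its start, and those bases were not searched for motifs. Each run is 236 bases from RefSeq (GRCm38.p6), at chr11:16751953-16752188 for Egfr and chr11:98412234-98412469 for Erbb2, plus strand, and capitals mark a match to a searched motif.
Egfr: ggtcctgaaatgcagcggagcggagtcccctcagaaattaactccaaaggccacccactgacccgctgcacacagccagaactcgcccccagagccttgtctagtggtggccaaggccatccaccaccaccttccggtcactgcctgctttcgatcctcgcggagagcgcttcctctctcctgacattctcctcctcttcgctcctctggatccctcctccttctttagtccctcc
Erbb2: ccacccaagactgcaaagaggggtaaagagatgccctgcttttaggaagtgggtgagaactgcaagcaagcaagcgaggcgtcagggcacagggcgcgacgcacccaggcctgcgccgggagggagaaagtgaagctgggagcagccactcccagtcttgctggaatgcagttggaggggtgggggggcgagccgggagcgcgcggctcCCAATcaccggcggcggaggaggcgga
In all, 4 letter strings were searched on both strands: GGGCGG (the GC box), TGANTCA (AP-1), CCAAT and TATAAA. The Erbb2 window held 1 match, to CCAAT, and the Egfr window held none of them. Among 32851 promoter windows, 30.8% held GGGCGG, 6.5% TGANTCA, 32.7% CCAAT and 11.9% TATAAA. GC content was 59.7% in the Egfr window and 65.7% in the Erbb2 window, and the median over all windows was 52.1%. A match is a description of letters only.

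**Figure D1:**
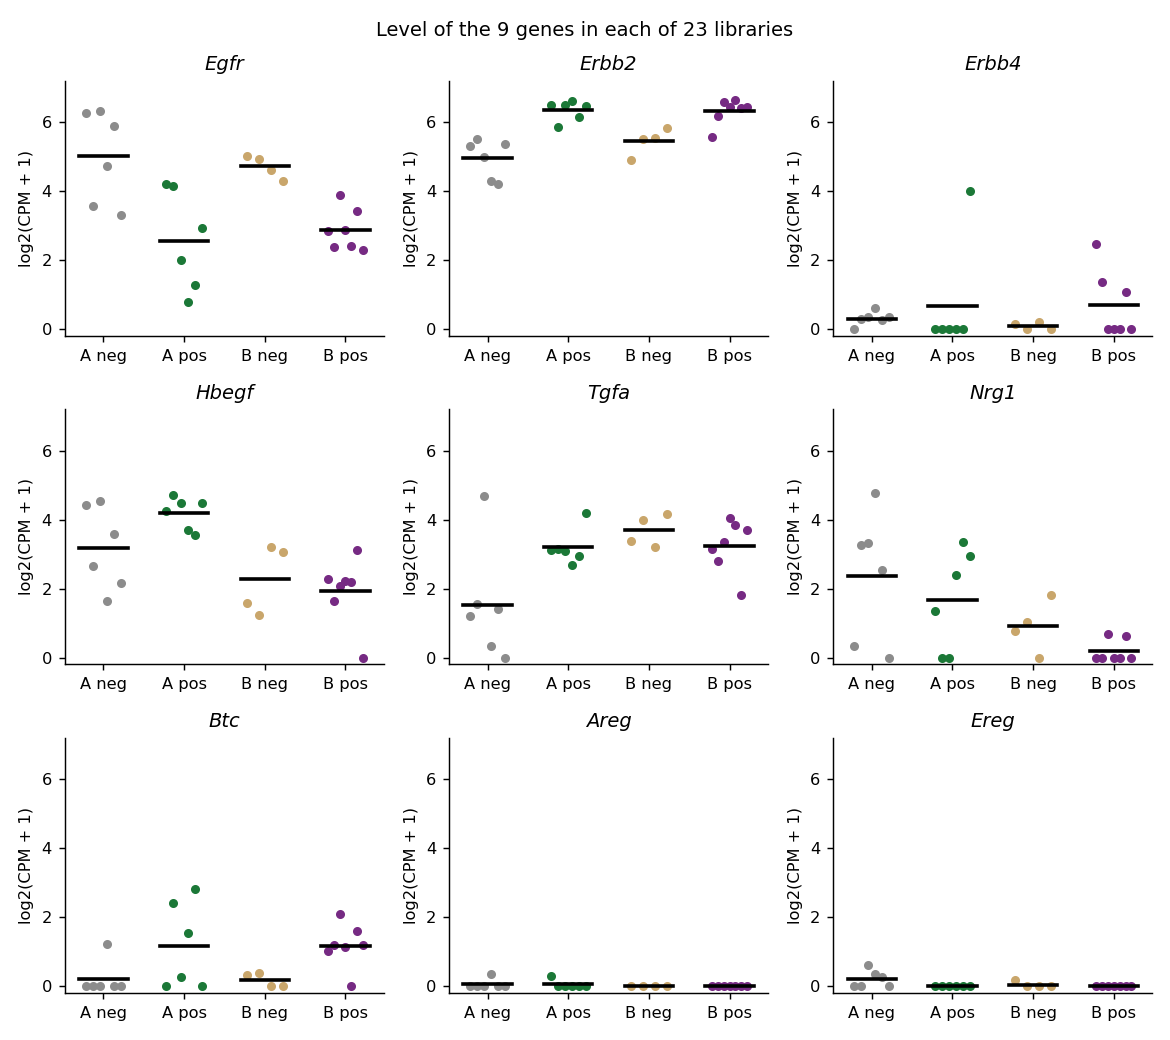
Level of the 9 genes as log2(CPM + 1) on the vertical axis in each of 23 libraries, by batch (A, B) and by Sox2-negative (neg) or Sox2-positive (pos) population. Points are libraries and bars are group means of the plotted values. Erbb2 sits higher and Egfr lower in Sox2-positive libraries, while Areg and Ereg lie at or near 0 throughout.

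Among the receptors, Erbb2 rose and Egfr fell in Sox2-positive cells. Erbb2 was about 2.20-fold higher and Egfr 4.63-fold lower over both batches, and each passed the test in each batch alone. Of the 5 members with enough counts to be tested over both batches, these 2 were called, in a comparison in which 57.5% of all 17190 genes tested were called (24.9% higher and 32.5% lower). In batch A the same 2 of 5 were called against 43.4% of genes (19.3% higher and 24.2% lower), and in batch B 2 of 4 against 54.7% (27.1% higher and 27.6% lower). The share of members called was thus near the share of all genes.

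Erbb2, the coreceptor without a known ligand, was read in every library. In batch A its lowest, median and highest levels were 17.7, 34.9 and 44.9 CPM in Sox2-negative libraries and 57.2, 88.8 and 97.3 CPM in Sox2-positive libraries. The groups did not overlap. In batch B the Sox2-negative libraries read 28.8, 44.9, 45.7 and 56.1 CPM, and the Sox2-positive libraries ran from 46.3 through a median of 85.8 to 99.0 CPM. Here 6 of 7 Sox2-positive libraries stood above all Sox2-negative ones, and replicate 1 stood among them. The log2 difference was 1.36 ± 0.26 (SE) in batch A and 0.96 ± 0.22 in batch B, with edgeR adjusted p = 0.000517 and 0.00154. Over both batches it was 1.14 ± 0.18, with edgeR adjusted p = 4.66e-06. Counting in the matrix has no stated strand setting, so reads from Mien1, whose gene overlaps Erbb2, cannot be told apart from Erbb2 reads where they overlap. Gm25048 overlaps Erbb2 as well. The same limit may apply to Egfr with Egfros, Tgfa with Gm43917, Ereg with Gm19610 and Nrg1 with Gm26578 and Gm22140. Overlap was judged on whole gene spans with introns, and overlap of exons was not checked.

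Egfr, the receptor for EGF, TGF-alpha, amphiregulin and HB-EGF, showed the opposite direction. Batch A Sox2-negative libraries ran from 8.87 through a median of 42.2 to 78.8 CPM, and Sox2-positive libraries from 0.712 through 4.85 to 17.7 CPM. These ranges overlapped, with 4 of 6 Sox2-positive libraries below all Sox2-negative ones. In batch B the Sox2-negative libraries read 31.6, 29.9, 23.5 and 18.9 CPM and the Sox2-positive libraries ran from 3.89 through 6.23 to 13.8 CPM. No batch B Sox2-positive library reached the Sox2-negative range. The log2 difference was -2.48 ± 0.74 (SE) in batch A and -1.80 ± 0.35 in batch B, with edgeR adjusted p = 0.0132 and 0.000416. Over both batches it was -2.21 ± 0.45, with edgeR adjusted p = 0.000135. In bulk samples like these, fewer cells that express a gene and less RNA of it per cell cannot be told apart. The epithelial, mesenchymal, endothelial, leukocyte, mast cell, red cell and ameloblast marker sums moved with the same contrast in both batches. The glial sum did so in batch A. The part of these sums in the Erbb2 and Egfr differences was not tested.

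**Figure D2:**
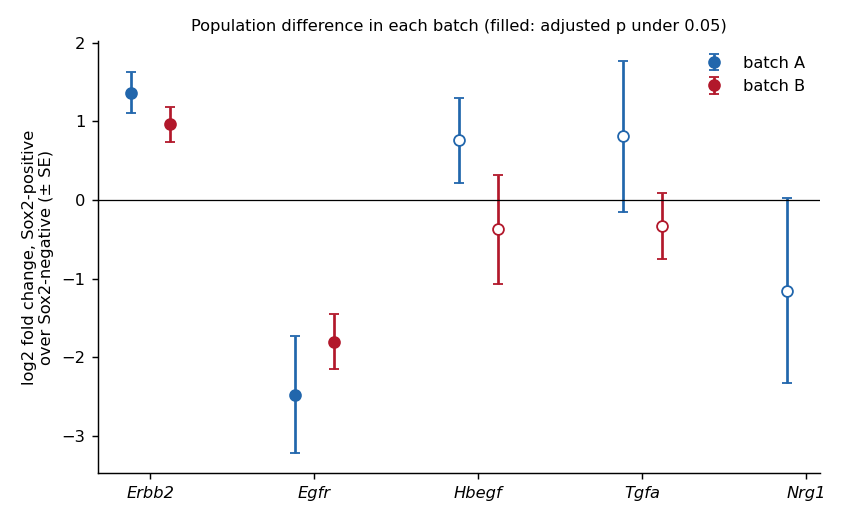
Difference between Sox2-positive and Sox2-negative libraries (log2 fold change, vertical axis) for each tested gene in batch A (blue) and batch B (red), with bars of 1 SE and filled points for an adjusted p under 0.05. Erbb2 lies above 0 and Egfr below 0 in both batches, and Nrg1 has no batch B point because it did not pass the count filter there.

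The spread of Egfr within batch A Sox2-negative cells was wide. Replicates 1, 3 and 5 read 76.5, 78.8 and 59.0 CPM, and replicates 2, 4 and 6 read 10.9, 25.4 and 8.87 CPM. Hbegf showed the same division, with 20.7, 22.2 and 10.9 CPM in replicates 1, 3 and 5 and 5.34, 2.09 and 3.49 CPM in the others. This pairing of 2 members was picked out after their values were seen, and the labels give no property that separates these libraries.

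Per kilobase of exon, which allows levels of different genes to be set side by side, Erbb2 made up most of the summed level of the 3 listed receptors Egfr, Erbb2 and Erbb4 in Sox2-positive cells. Its share ran from 88.2% to 99.7% in batch A, with a median of 95.1%, and from 90.6% to 98.0% in batch B, with a median of 96.5%. In Sox2-negative cells the share ran from 39.3% to 90.7% in batch A, with a median of 56.8%, and from 66.3% to 86.6% in batch B, with a median of 78.7%. The ranges overlapped in batch A and did not overlap in batch B. The sum of the 3 receptors averaged 9.98 ± 3.09 CPM per kilobase (SD, n = 6) in batch A Sox2-negative cells and 16.6 ± 2.86 (SD, n = 6) in Sox2-positive cells, and 10.7 ± 1.73 (SD, n = 4) and 16.3 ± 3.38 (SD, n = 7) in batch B. With Erbb3 added as the fourth receptor, the share of Erbb2 had medians of 55.7% and 56.1% in Sox2-negative and Sox2-positive cells of batch A and of 74.3% and 82.2% in batch B. The share of Erbb3 in that sum had medians of 0.505% and 40.7% in batch A and of 5.596% and 15.4% in batch B. Division by exon length assumes that the deposited counts still grow with length. Among genes of 1 transcript read in 1 to 3 libraries, the median of the lowest nonzero value was 1.0 for exon lengths up to 500 bases and 0.976 for lengths from 2000 to 4000 bases, a far smaller change than that in length. These sums and shares restate the differences of the single genes and were given no test of their own.

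**Figure D3:**
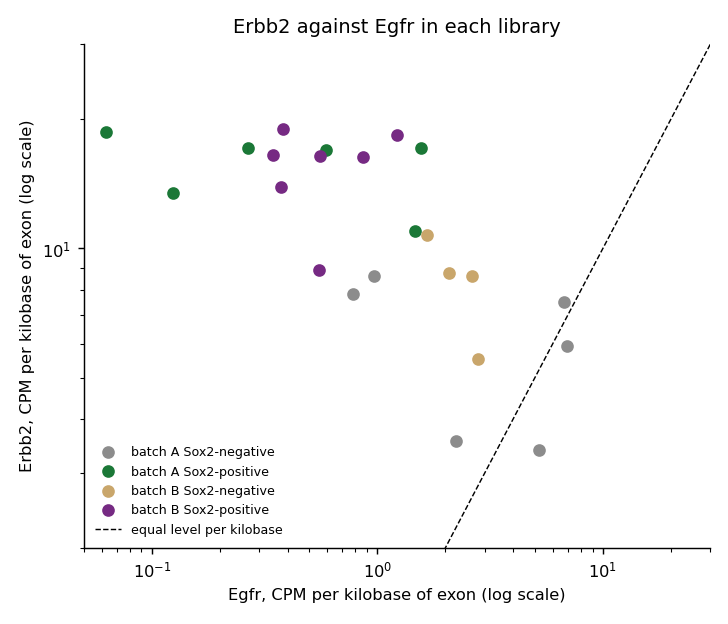
Level of Erbb2 (vertical) against Egfr (horizontal) in CPM per kilobase of exon, both on log axes, 1 point per library coloured by group, with a dashed line of equal levels. Sox2-positive libraries lie at the upper left, and 2 batch A Sox2-negative libraries lie on the Egfr side of the line.

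Erbb4, a receptor for neuregulins and betacellulin, exceeded 3 counts in 4 of 23 libraries, all of them Sox2-positive. Replicate 6 of batch A held 95 counts, or 15.1 CPM, and the other 5 Sox2-positive libraries of that batch held 0. In batch B, replicates 1, 2 and 6 held 27, 11 and 6 counts, or 4.55, 1.55 and 1.09 CPM, and the other 4 held 0. No Sox2-negative library held more than 2 counts. Erbb4 therefore did not pass the count filter, and its presence rested on a minority of libraries in each batch. Its gene also spans 8 other annotated genes, and whether their exons overlap those of Erbb4 was not checked.

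Erbb3, the kinase-poor partner of Erbb2, averaged 73.8 ± 16.6 CPM (SD, n = 6) in batch A Sox2-positive cells and 18.3 ± 5.29 (SD, n = 7) in batch B, against 1.09 ± 1.50 (SD, n = 6) and 3.14 ± 1.44 (SD, n = 4) in Sox2-negative cells. It passed the test in each batch with log2 differences of 6.10 ± 0.71 and 2.60 ± 0.40 (SE) and edgeR adjusted p = 4.11e-06 and 5.14e-05, and the interaction was -3.58 ± 0.78 (edgeR adjusted p = 0.00412). The glial marker sum given above was also highest in batch A Sox2-positive cells, and its part in the Erbb3 values was not tested.

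Among the 5 listed ligands of Egfr, Hbegf and Tgfa made up most of the summed level in nearly every library. Their share of the summed level per kilobase of Areg, Ereg, Hbegf, Tgfa and Btc had medians of 99.3% and 92.7% in Sox2-negative and Sox2-positive cells of batch A, and of 98.7% and 86.7% in batch B. The lowest single libraries stood at 45.5% and 70.7% in Sox2-negative and Sox2-positive cells of batch A, and at 95.9% and 74.5% in batch B. With Egf added to the sum, the medians were 77.2%, 86.3%, 88.9% and 79.0% in that order. Neither Hbegf nor Tgfa passed the test between populations in either batch with all libraries, while Hbegf passed between batches within Sox2-positive cells.

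Hbegf, the heparin-binding ligand, had lowest, median and highest levels of 2.09, 8.13 and 22.2 CPM in batch A Sox2-negative cells and of 10.7, 19.7 and 25.3 CPM in Sox2-positive cells. Batch B Sox2-negative libraries read 2.02, 1.35, 8.32 and 7.31 CPM, and Sox2-positive libraries ran from 0 through 3.59 to 7.62 CPM. Within Sox2-positive cells, all 6 batch A libraries stood above all 7 batch B libraries. That batch difference was -2.37 ± 0.60 (SE) on the log2 scale, a 5.16-fold lower level in batch B, with edgeR adjusted p = 0.00926. Within Sox2-negative cells it was -1.18 ± 0.70 and did not pass (edgeR adjusted p = 0.304), and the interaction, which tests whether the population differences of the batches differ, was -1.18 ± 0.89 (edgeR adjusted p = 0.512). The population difference of Hbegf was 0.76 ± 0.54 in batch A and -0.37 ± 0.69 in batch B, with edgeR adjusted p = 0.278 and 0.668.

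Tgfa, the gene of transforming growth factor alpha, was read in both populations. In batch A its lowest, median and highest levels were 0, 1.49 and 25.1 CPM in Sox2-negative cells and 5.46, 7.64 and 17.4 CPM in Sox2-positive cells. The highest Sox2-negative value was replicate 3, and the other 5 libraries of that group stood below 2 CPM, beneath every Sox2-positive library. Batch B Sox2-negative libraries read 9.51, 14.9, 8.32 and 17.0 CPM, and Sox2-positive libraries ran from 2.54 through 9.20 to 15.5 CPM, so the groups overlapped. The population difference was 0.81 ± 0.96 (SE) on the log2 scale in batch A and -0.33 ± 0.42 in batch B, with edgeR adjusted p = 0.522 and 0.527.

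A single library decided the result for Tgfa. Without replicate 3 of batch A Sox2-negative cells, the batch A difference was 3.05 ± 0.79 (SE) with edgeR adjusted p = 0.00582. The batch difference within Sox2-negative cells was 1.30 ± 0.82 with that library, with edgeR adjusted p = 0.342, and 3.53 ± 0.66 without it, with edgeR adjusted p = 0.000737. The interaction was -1.20 ± 1.09 with it, with edgeR adjusted p = 0.607, and -3.42 ± 0.81 without it, with edgeR adjusted p = 0.00845. Marker sums moved with the same batch contrast. From batch A to batch B Sox2-negative cells the median red cell sum went from 1096 to 55490 CPM and the epithelial sum from 218.1 to 410.8 CPM, while the mast cell sum went from 968.8 to 50.6, the leukocyte sum from 1317 to 300.2 and the endothelial sum from 706.2 to 192.0 CPM. Their part in the Tgfa values was not tested.

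Btc, betacellulin, exceeded 3 counts in 9 of 23 libraries, and 8 of these were Sox2-positive. Batch A Sox2-positive libraries read 0, 4.30, 0.188, 1.90, 6.04 and 0 CPM, and batch B ones ran from 0 through 1.27 to 3.22 CPM. The highest Sox2-negative value was 1.31 CPM, from 5 counts in replicate 4 of batch A, and the other Sox2-negative libraries held at most 2 counts. Btc and Erbb4 stood below the count filter. With no filter beyond 1 count, where 35.1% of 37531 genes were called over both batches, Btc was higher in Sox2-positive cells by 3.25 ± 0.97 (SE, edgeR adjusted p = 0.00635) and Erbb4 by 3.44 ± 1.08 (edgeR adjusted p = 0.00955) on the log2 scale. In batch A alone neither passed (edgeR adjusted p = 0.118 and 0.117), and in batch B both did (0.028 and 0.0344, with 32.5% of genes called). Such fitted values of genes near 0 depend on the prior count.

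Areg and Ereg, ligands that sit beside Btc on chromosome 5 (Areg at chr5:91139599-91148432, Ereg at chr5:91074622-91093646 and Btc at chr5:91357261-91402994, mm10), were at or under the floor. Areg had 2 counts in all 23 libraries together and Ereg had 5, with at most 1 and 2 in any library. All 13 Sox2-positive libraries held 0 Ereg counts. A level under the floor of a library was not detectable at this depth. With no filter beyond 1 count, Ereg was called lower in Sox2-positive cells over both batches (edgeR adjusted p = 0.0249) and Areg was not (edgeR adjusted p = 0.941). No fold is given for either, since both populations lay at or under the floor.

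Nrg1, neuregulin 1, is the family's ligand for ERBB3 and ERBB4 rather than for EGFR. Its lowest, median and highest levels were 0, 6.69 and 26.4 CPM in batch A Sox2-negative cells and 0, 2.91 and 9.26 CPM in batch A Sox2-positive cells. Batch B Sox2-negative libraries read 0.713, 1.05, 0 and 2.55 CPM, and 5 of 7 Sox2-positive libraries held 0, with the other 2 at 0.614 and 0.544 CPM. The populations overlapped in each batch. The population difference did not pass over both batches, at -1.63 ± 0.86 (SE, edgeR adjusted p = 0.105), nor in batch A, at -1.15 ± 1.17 (edgeR adjusted p = 0.453).

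Within Sox2-positive cells Nrg1 was lower in batch B by 4.09 ± 1.28 (SE) on the log2 scale, with edgeR adjusted p = 0.0384, and the ranges overlapped at 0. Hbegf and Nrg1 were thus 2 of 5 members lower in batch B there, where 10.4% of all genes were called and 5.54% were lower. The Nrg1 call was lost when any of 8 single libraries was left out, namely replicates 4, 5 and 6 of batch A or 1, 2, 4, 5 and 7 of batch B, with edgeR adjusted p up to 0.0943. The Hbegf call held in every such fit, with edgeR adjusted p from 0.00573 to 0.0245. Markers moved with this contrast too. All 7 glial markers were lower in batch B Sox2-positive cells, with summed ranges of 1253 to 1495 CPM in batch A and 72.8 to 107 CPM in batch B, and 4 of 5 tested ameloblast markers were lower, from 293.2 to 349.4 CPM against 9.80 to 17.3 CPM, with Enam at 0 in batch B. Their part in the Hbegf and Nrg1 differences was not tested.

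Egfr and Erbb2 did not pass the test between batches, and Erbb4 was not tested there. Egfr differed by -0.74 ± 0.66 (SE) on the log2 scale within Sox2-negative and -0.13 ± 0.58 within Sox2-positive cells, with edgeR adjusted p = 0.537 and 0.949. Erbb2 differed by 0.45 ± 0.26 and -0.01 ± 0.22, with edgeR adjusted p = 0.281 and 1. No member passed within Sox2-negative cells, where 11.2% of genes were called and Nrg1 alone had an unadjusted p below 0.05 (0.0498). No member passed the interaction, where 7.04% of genes were called and 0 members had an unadjusted p below 0.05, and the interaction was 0.60 ± 0.88 for Egfr and -0.46 ± 0.34 for Erbb2. These limits do not show that the population differences were alike in the 2 batches.

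**Figure D4:**
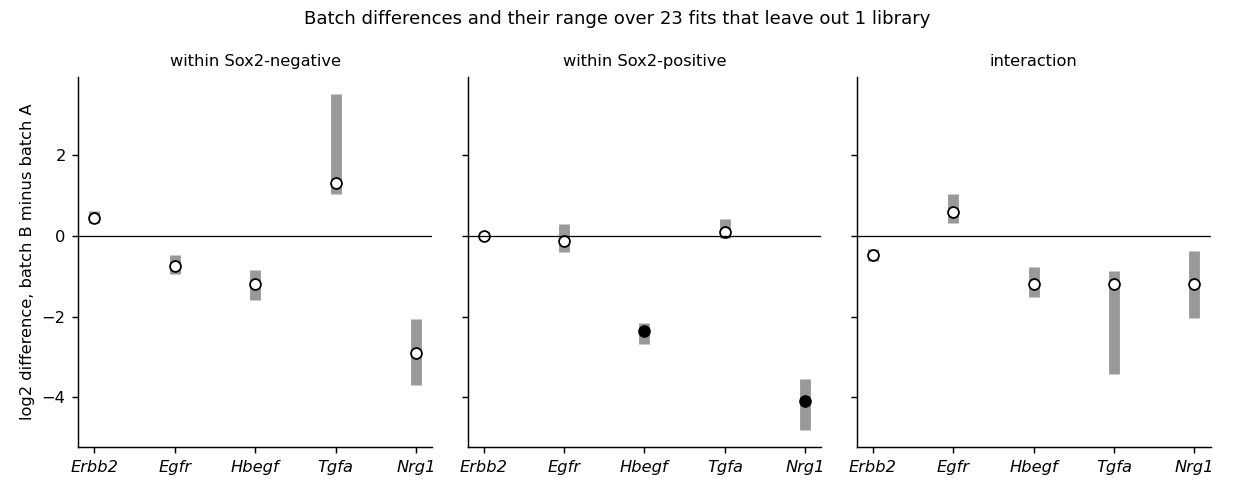
Batch B minus batch A (log2, vertical axis) for the 5 tested genes within Sox2-negative cells, within Sox2-positive cells and as the interaction. Circles are the values with all libraries (filled: adjusted p under 0.05) and grey bars the range when 1 library is left out. Hbegf and Nrg1 are filled within Sox2-positive cells, and the Tgfa bar within Sox2-negative cells reaches 3.53.

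Genes that act with the receptors were read from 5 lists of 53 genes, chosen with earlier results of these data known. Over both batches the median log2 difference of all genes tested was -0.12. There 24.9% of all genes were called higher and 32.5% lower, which is the background for each count over both batches below. Of 6 genes for the processing and release of ligands, 4 rose, 1 fell and the median was 0.58. Furin, a proprotein convertase, rose by 0.83 ± 0.14 (SE, edgeR adjusted p = 9.89e-06), and Bace1, a protease that cuts neuregulin, rose by 0.78 ± 0.17 (edgeR adjusted p = 0.000318). The other genes that rose, named after their values were seen, were Adam10 and Rhbdf2. With each batch fitted alone, Adam10 was called higher only in batch A and Rhbdf2 only in batch B. In batch A 3 of 6 were up and 1 down, where 19.3% of all genes were higher and 24.2% lower. In batch B 3 of 6 were up and 1 down, where 27.1% were higher and 27.6% lower. Under the contrast from the fit of 4 groups 1 was up in batch B. Adam17, the main sheddase of TGF-alpha and HB-EGF, fell by 1.22 ± 0.15 on the log2 scale (edgeR adjusted p = 1.39e-07), from means of 77.1 and 110.8 CPM in Sox2-negative cells of batches A and B to 39.9 and 38.6 CPM.

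Of 10 negative regulators of the receptors, 5 fell, none rose (0 of 10) and the median was -0.59. Errfi1, which binds and inhibits the EGFR kinase, fell by 1.54 ± 0.20 (SE) on the log2 scale with edgeR adjusted p = 2.06e-07. Its mean was 72.1 ± 26.1 CPM (SD, n = 6) against 20.1 ± 6.09 (SD, n = 6) in batch A and 55.2 ± 13.9 (SD, n = 4) against 24.5 ± 3.83 (SD, n = 7) in batch B. Ptpn1, a tyrosine phosphatase, fell by 0.69 ± 0.14 (edgeR adjusted p = 0.000128), and Cbl, Cblb and Lrig3, named after their values were seen, fell too. In batch A alone 2 of 10 fell, where 24.2% of all genes did, and in batch B 5 of 10, where 27.6% did. Without batch A Sox2-negative replicate 5, 1 of the 10 rose in batch A and over both batches, and without batch B Sox2-negative replicate 1, 3 fell in batch B.

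Among 22 genes of the signal relay, 5 rose and 8 fell over both batches, shares near those of all genes, with a median of -0.25. Nras and Map2k1, a Ras protein and the kinase that activates ERK, rose by 1.11 ± 0.12 and 0.95 ± 0.14 (SE) with edgeR adjusted p = 1.48e-08 and 3.19e-06. Pik3r1, the regulatory subunit of PI3 kinase, and Stat5a, a transcription factor, fell by 1.58 ± 0.15 and 1.30 ± 0.29 with edgeR adjusted p = 1.97e-09 and 0.000394. Genes of the list were called in both directions in each batch. In batch A 3 of 22 were up and 3 down, where 19.3% of all genes were higher and 24.2% lower. In batch B 5 of 22 were up and 10 down, where 27.1% were higher and 27.6% lower. Under the replicate block 6 were down in batch B, and under the contrast from the fit of 4 groups 5 were up and 5 down in batch A.

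Of 8 tested genes that ERK signalling induces, 4 rose, 1 fell and the median was 0.77. Dusp6, an ERK phosphatase, rose by 2.13 ± 0.21 (SE, edgeR adjusted p = 1.63e-09), from 81.8 ± 39.4 to 431.1 ± 45.6 CPM in batch A (SD, n = 6 each) and from 54.5 ± 16.3 (SD, n = 4) to 192.7 ± 17.7 CPM (SD, n = 7) in batch B. Etv5, an ETS factor, rose by 1.73 ± 0.17 (edgeR adjusted p = 3.03e-09) and Ier3 fell by 1.28 ± 0.19 (edgeR adjusted p = 2.03e-06). These genes also answer other receptors, among them those for FGF. The batches differed for this list, of which 7 genes were tested in each batch alone. In batch A 5 were up, 1 was down and the median was 1.14, where 19.3% of all genes were higher and 24.2% lower. In batch B 3 were up, 2 were down and the median was 0.05, where 27.1% were higher and 27.6% lower. Egr1 and Etv4, named after their values were seen, were called in the interaction at -2.48 ± 0.49 and -2.27 ± 0.40 (SE), with edgeR adjusted p = 0.00172 and 0.000563. Egr1 differed by 1.14 ± 0.20 in batch A and by -1.26 ± 0.47 in batch B, with edgeR adjusted p = 0.000207 and 0.0315. Etv4 differed by 1.85 ± 0.31 in batch A and by -0.36 ± 0.22 in batch B (edgeR adjusted p = 0.000183 and 0.174). Etv4 is among the 4 genes that rose over both batches, and it did not rise in batch B. Within Sox2-positive cells, 5 of the 8 were lower in batch B and none was higher (0 of 8), where 5.54% of all genes were lower. The lower genes were Dusp6, Etv4, Ier3, Phlda1 and Egr1. Egr1, an immediate early gene, averaged 212.0 ± 41.1 CPM (SD, n = 6) in batch A and 8.003 ± 3.47 (SD, n = 7) in batch B there. The same 2 batches of Sox2-positive cells differed in Hbegf and in the glial markers.

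**Figure D5:**
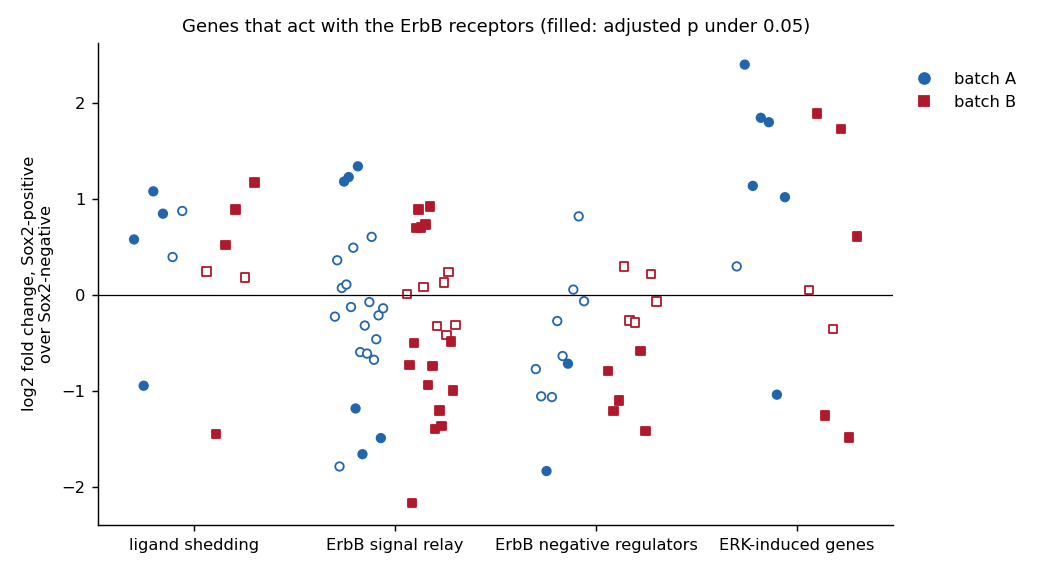
Difference between Sox2-positive and Sox2-negative cells (log2 fold change, vertical axis) of the genes in 4 lists, 1 point per tested gene, batch A as circles and batch B as squares, filled for an adjusted p under 0.05. No negative regulator is filled above 0 in either batch, while the relay genes lie on both sides.

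Of the other family members, Egf, Epgn, Nrg2, Nrg3 and Nrg4, only Egf and Nrg4 were tested over both batches and neither was called. Egf averaged from 2.45 to 4.39 CPM over the 4 groups and Nrg4 from 1.08 to 3.96 CPM. Epgn had 15 counts in all libraries, of which 14 were in 1 batch A Sox2-positive library.

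The genes whose level over the 23 libraries was most like that of each tested member were found by Pearson correlation of log2 CPM over about 11091 genes. They are given as a description, since the libraries share group and batch. For Erbb2 they were Cdc42se1 (r = 0.937), Lsr (0.913) and Fgd2 (0.91), and for Egfr 4933421O10Rik (0.854), Atad2b (0.842) and Vasp (0.824). For Tgfa they were Fstl3 (0.808), Sowahc (0.786) and Lrp12 (0.784), and for Nrg1 Depdc5 (0.746), Rap1a (0.734) and Lgmn (0.711). For Hbegf they were Pcna-ps2 (0.806), a pseudogene whose reads may be shared with its parent, Srsf5 (0.778) and Nid2 (0.734).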

How the data were processed

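RNA was measured in 23 Smart-seq2 libraries. The deposited matrix holds estimated counts per gene, which the authors made with Trimmomatic and Salmon on mm10, per the submitters' processing notes, with no versions given. Few nonzero values (0.000436%, within 0.000001) were whole, while column totals lay within 0.111 of a whole number. How the authors' deposited counts were adjusted is not given in the sources used here, and they were rounded before testing. Unused columns of per-sample values numbered 0. Identifiers were matched to symbols for 54094 of 54347 genes. Tests used edgeR 4.0.16 in R 4.3.3 (quasi-likelihood, TMM, filterByExpr with a minimum count of 10, Benjamini-Hochberg over all genes tested, two-sided, called under 0.05). Batch was a covariate over both batches, each batch was fitted alone, and 4 group means gave the interaction and batch contrasts. The SE is the absolute log2 fold change over the square root of F. Exon length is the union of GENCODE M21 exons. Alternatives were DESeq2 1.42.0, limma-voom 3.58.1 with quality weights for the libraries, other scalings and filters, thinned counts, a replicate block and omitted libraries. All 9 members were described. In each pathway list, the genes named were Erbb3 and those with the 2 highest and 2 lowest differences over both batches among genes called in batches A and B separately with 1 sign. Genes of like pattern were the 3 with the highest r per tested member among genes of at least 10 CPM on average. In simulated counts of 17190 genes, 200 were given a change. Over both batches 42% of genes changed by 1 on the log2 scale and 71% of those changed by 2 were called, and for the interaction 11% and 32%. In the data 57.5% of genes were called over both batches and 7.04% in the interaction. The adjusted p depends on how many genes change, so these rates are not the detection rates of the tests above. Floors cover counting error only. Members and lists were chosen with earlier results of these data known. Some pathway genes are not reported here, and ATAC-seq was not analysed here.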

Additional observations from a re-analysis of the deposited data

Results flagged for a closer look

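In 6 of 25 sets of a gene within a group, 1 library lay far from the others of its group. The cut-off used flags about 1 in 20 sets of normally distributed values, which low CPM such as these need not follow. The count of 6 can therefore not be set against a rate of chance. Tgfa read 25.1 CPM in batch A Sox2-negative replicate 3 and 17.4 CPM in batch A Sox2-positive replicate 6. Erbb4 read 15.1 CPM in that same Sox2-positive replicate 6 and 4.55 CPM in batch B Sox2-positive replicate 1. Nrg1 read 26.4 CPM and Btc 1.31 CPM in batch A Sox2-negative replicate 4. In each case the library was the highest of its group.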

How the results depend on the processing

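The Egfr and Erbb2 population calls and the Hbegf call within Sox2-positive cells held under the alternatives run. Within Sox2-positive cells, the small batch difference of Egfr turned to 0.71 under limma-voom and 0.012 without batch B libraries 1 and 2, and ran from -0.39 to 0.30 when 1 library was left out. That of Erbb2 turned to 0.006 with no filter, 0.13 without those libraries and 0.061 with thinned counts (from -0.085 to 0.10 with 1 library left out), and that of Tgfa to -0.032 under limma-voom and -0.14 with thinned counts (from -0.055 to 0.42). Hbegf in batch B turned to 0.073 under limma-voom (from -0.70 to 0.061 with 1 library left out). Tgfa passed under limma-voom with quality weights, where libraries need not count equally, in batch A (2.64, limma-voom adjusted p = 0.0233) and within Sox2-negative cells (3.15, limma-voom adjusted p = 0.0278). Nrg1 within Sox2-positive cells missed under limma-voom (-2.72, limma-voom adjusted p = 0.0732) and without batch B libraries 1 and 2 (-3.58, edgeR adjusted p = 0.193). The cause was not tested.

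With no filter, 5 members were called over both batches (Egfr, Erbb2, Erbb4, Btc and Ereg) and 4 in batch B. Under limma-voom 1 was called within Sox2-negative and 1 within Sox2-positive cells, and without batch B libraries 1 and 2, 1 within Sox2-positive cells. Leaving out 1 library gave 2 to 3 members in batch A and over both batches, 0 to 1 within Sox2-negative cells and in the interaction, and 1 to 2 within Sox2-positive cells. Genes called numbered 754 within Sox2-negative cells, 1159 within Sox2-positive cells and 481 in the interaction without batch B libraries 1 and 2, and 3313 within Sox2-positive cells under limma-voom, against 1924, 1785 and 1210. With total-count scaling the median of all genes shifted by 0.12 over both batches and -0.15 within Sox2-negative cells, and the share of calls that were higher went from 52.2% to 32.3% within Sox2-negative and from 46.7% to 35.4% within Sox2-positive cells. Same-numbered libraries did not deviate together (r from -0.02 to 0.04). With the replicate number as a block, 8795 genes were called over both batches, 5829 in batch A, 6668 in batch B and 557 in the interaction, and members called stayed at 2, 2, 2 and 0. The Erbb3 interaction of -3.58 missed under the block (edgeR adjusted p = 0.0584) and without batch B libraries 1 and 2 (-3.22, edgeR adjusted p = 0.0876). Among pathway genes, the batch B calls of Bace1, Ptpn1 and Stat5a were each lost under the block and without batch B libraries 1 and 2, and in some fits without 1 batch B library (edgeR adjusted p up to 0.114 there). Areg, Ereg, Erbb4 and Btc lay at or under 3 counts in most libraries, which limits what can be said of them.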
